A study of Drosophila melanogaster with 6 samples.

Results

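Structural proteins of the larval cuticle were followed in whole L2 larvae of *Drosophila melanogaster* without pyruvate kinase (Pyk), the enzyme of the last step of glycolysis. Every gene whose FlyBase symbol starts with Twdl (Tweedle), Lcp (larval cuticle protein), Ccp84A, Edg or Vajk was taken by its name. These families were chosen with earlier results of these data known, so their shares beside those of all genes are descriptions. The rule gave 57 of the 17869 genes in the count files, namely 26 Twdl, 17 Lcp, 7 Ccp84A, 3 Edg and 4 Vajk genes. Of these, 52 had at least 12 counts over the 6 libraries and were compared between genotypes among the 11422 genes that passed the same filter. The mutants were *Pyk 23/31* larvae, which carry a different CRISPR/Cas9 frameshift deletion on each chromosome, and the controls were *Pyk 23/+* larvae, which carry the *Pyk 23* deletion on 1 chromosome only. Controls therefore share the *Pyk 23* allele with the mutants and are not wild type. Each genotype had 3 samples of whole animals, sequenced as strand-specific poly(A) RNA. The mutants die during L2. By the study's methods both sexes were mixed, larvae for metabolomics were taken early in L2, and neither labels nor methods state the hour within L2 of each RNA sample. The study calls the samples biological replicates without naming their cultures, so the p-values speak of spread among these particular samples, part of which may be technical.

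The cuticle is secreted by the apical face of the epidermis and replaced at each molt, when pulses of the steroid hormone ecdysone switch sets of cuticle genes on and off. Lcp and Ccp84A proteins, Edg78E and Edg84A carry the Rebers-Riddiford domain, which binds chitin, whereas Tweedle proteins form a separate insect family, and *Tubby*, a dominant allele of *TwdlD*, gives a short and wide body. Edg genes were named as ecdysone-dependent genes, and the Vajk genes encode cuticle proteins, several of them lying within the Nimrod gene cluster.

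Between 11249487 and 16029304 read pairs per library were assigned to named genes, and 3 counts correspond to 0.185 to 0.272 CPM (counts scaled to a common library size by TMM). *Pyk* itself was measured at 53.7, 44.0 and 57.7 CPM in mutant replicates 1, 2 and 3, against 465, 442 and 419 CPM in control replicates 1, 2 and 3, as the labels require. Replicate 3 stood apart in both genotypes. On the leading principal component (71.3% of the variance), mutants scored 52.9, 55.0 and 24.4 and controls -62.3, -59.1 and -10.9, so that control replicate 3 lay between its own genotype and the mutants. The results below are therefore given library by library, and counts are repeated without control replicate 3.

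Of the 52 cuticle genes tested, 4 were higher in mutants (*Lcp1*, *Lcp2*, *Lcp9* and *TwdlN*), 10 were lower (*Lcp3*, *Lcp4*, *Lcp65Aa*, *Lcp65Ac*, *Lcp65Ag1*, *Lcp65Ag3*, *TwdlO*, *Twdlalpha*, *Vajk2* and *Vajk3*) and 38 fell short of an adjusted p of at most 0.05 (edgeR quasi-likelihood, Benjamini-Hochberg). Over all 11422 genes, 22.2% were called higher and 26.0% lower by the same test. With a change of at least 2-fold asked for as well, 2 cuticle genes were higher and 4 lower, against 5.25% and 2.25% of all genes. The estimated direction ran the other way from the calls, since 37 of the 52 had a positive log2 fold change (mutant over control), against 5833 of all 11422 genes. The median of the 52 was 1.78, against 0.015 over all genes. As many as 33 of the 52 had a log2 fold change of at least 1, and 31 of these did not pass. Over all 11422 genes, 1172 reached that change, and 572 of these did not pass. In 32 of the 52 every mutant library lay above every control library, which holds for 29.4% of all genes, and in 10 every mutant lay below every control, which holds for 31.5% of all genes. Since whole larvae were sequenced, changes in the number of cells that make cuticle and in cuticle RNA per cell cannot be told apart here.

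Control replicate 3 differed from the other controls in most of these genes. In control replicate 3, 30 of the 52 cuticle genes were at least 2-fold above both other controls (log2 CPM with a prior count of 2), against 3.47% of all genes, and none was 2-fold below them, against 0.735% of all genes. These 30 were 20 Twdl genes, 6 Ccp84A genes, *Edg78E*, *Lcp65Ad*, *Vajk1* and *Vajk4*. *Edg78E* was the member nearest inside that limit, 1.12 above on the log2 scale, and *Lcp9* and *Ccp84Ab* were nearest outside it, at 0.66 and 0.64. All 30 had a log2 fold change between 1.22 and 4.11 (median 2.49) with standard errors (SE) of 0.41 to 2.50, and none passed the test (adjusted p = 0.066 to 0.33, edgeR), although 6 had an unadjusted p under 0.05 and DESeq2 called 15 and limma-voom 26 of them higher. In 26 of the 30 every mutant was above every control, with *TwdlF*, *TwdlR*, *TwdlQ* and *TwdlZ* as the exceptions. Control replicate 3 stood a median of 12.8-fold above the mean of control replicates 1 and 2, and the mutant mean stood a median of 27.9-fold above those 2 controls and 2.18-fold above control replicate 3. In the medians against control replicates 1 and 2, *TwdlQ*, which had no count in either, was taken as the highest. Without control replicate 3, 28 of the 30 were higher (all but *TwdlF* and *TwdlQ*), with a median log2 fold change of 4.78. The medians against control replicates 1 and 2 and that count are descriptions and no support. The 30 were chosen on the control values and thus on the low level of control replicates 1 and 2. Results without control replicate 3 for single genes of the 30 are descriptions for the same reason. Over all 52 members, 33 were higher and 10 lower without control replicate 3, against 22.8% and 25.8% of the 11294 genes tested there. With replicate 3 of both genotypes left out, 34 were higher and 12 lower, against 24.1% and 25.7% of 11088 genes. With all 6 libraries, DESeq2 called 21 higher and 10 lower (21.9% and 20.8% of all genes), and limma-voom 30 higher and 10 lower (23.2% and 26.0% of all genes).

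**Figure D1:**
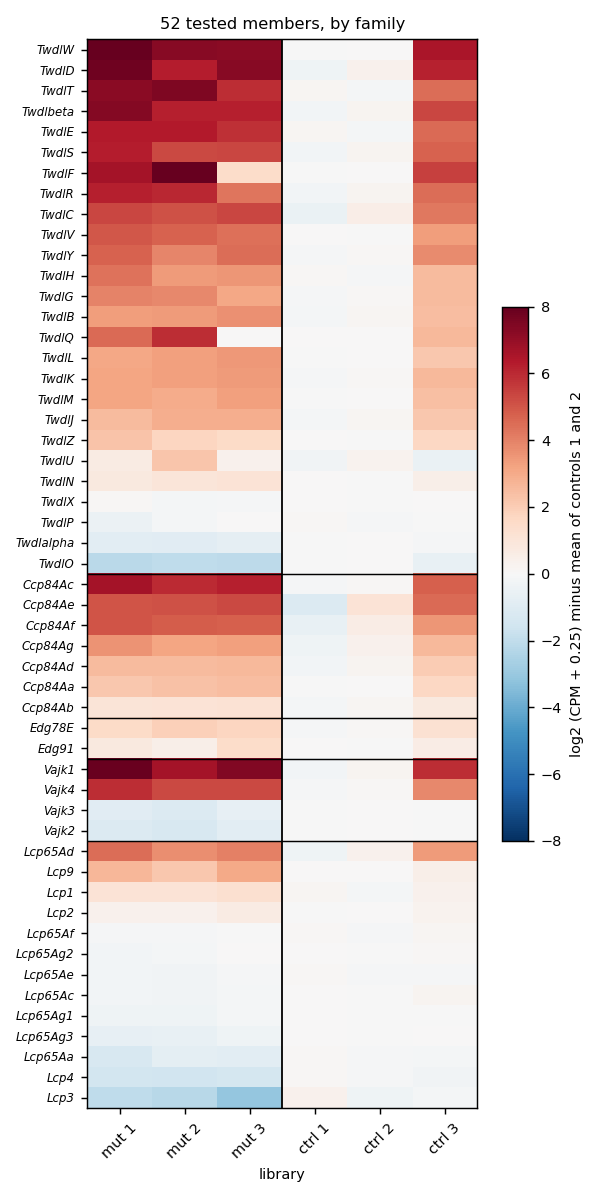
Heat map of the 52 tested cuticle genes (rows, grouped by family) in the 6 libraries (columns, mutants left of controls), as log2 of CPM plus 0.25 minus the mean of control replicates 1 and 2. Red marks higher values, up to 8 on the log2 scale, and control replicate 3 is red in the 30 genes that were at least 2-fold above the other controls there.

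The other 22 members stood in control replicate 3 at a median of 1.00-fold of control replicates 1 and 2, with a range of 0.607 to 1.73-fold apart from *Lcp9*, which had a single control count. Among them were all 14 genes that passed the test, and 8 that did not, with a median log2 fold change of -0.15. That division of the calls follows in part from the split, because a wide spread among the controls raises the SE. The 22 genes include 12 of the 13 tested Lcp genes but 6 of the 26 Twdl genes. Proteins of the 30 genes raised in control replicate 3 had a median length of 247 residues, against 126 residues in these others, leaving out *TwdlU*, which is annotated as a pseudogene.

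Summed over each family, the 2 patterns gave sums that ran in different directions. The 26 Twdl genes together reached 9059.8, 9119 and 9483 CPM in mutants and 3791, 3802 and 6321 CPM in controls, so that control replicate 3 was the highest control and still under every mutant. The 7 Ccp84A genes reached 779, 687 and 751 CPM in mutants and 81.7, 112 and 423 CPM in controls, where control replicate 3 was again the highest control and under every mutant. The 13 Lcp genes went the other way, at 5649, 5666 and 6334 CPM in mutants and 7470.1, 6772 and 7344 CPM in controls, with no overlap. The 4 Vajk genes summed to 2366, 1916 and 2619 CPM in mutants and 3883, 4030.1 and 3968 CPM in controls, also without overlap. The 2 tested Edg genes summed to 59.5, 57.4 and 85.7 CPM in mutants and 29.6, 29.9 and 49.9 CPM in controls. Added up, all 52 genes made 18211 ± 949 CPM in mutants and 16036 ± 1811 CPM in controls (SD, n = 3 each), and the groups overlapped, since control replicate 3 (18106 CPM) exceeded mutant replicates 1 and 2 (17913 and 17446 CPM). Twdl genes thus took 49.2% to 52.3% of the summed CPM in mutants, and 24.8%, 25.8% and 34.9% in control replicates 1, 2 and 3. Lcp genes took 31.5% to 32.9% in mutants and 40.6% to 49.0% in controls, and Vajk genes 11.0% to 13.6% in mutants and 21.9% to 27.3% in controls. No test was made of sums or shares.

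**Figure D2:**
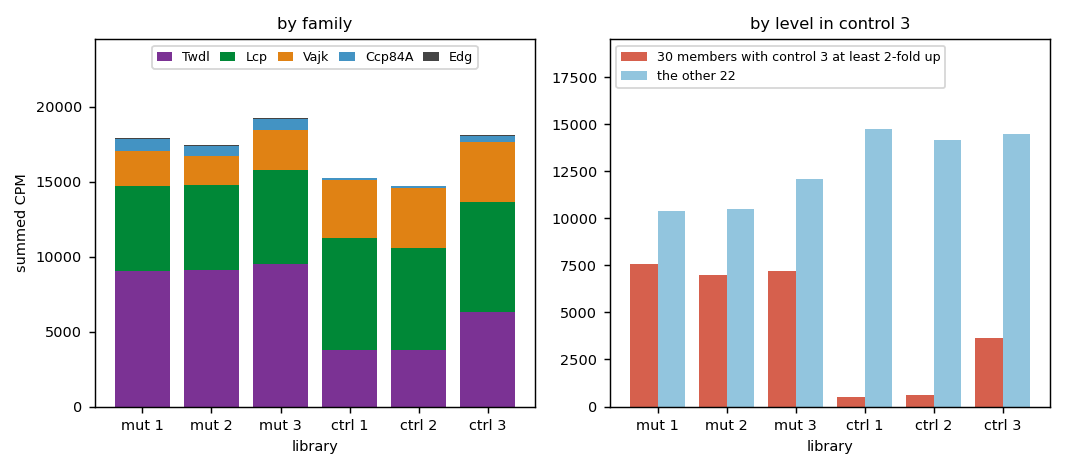
Summed CPM of the cuticle genes in each library (mutants left of controls), stacked by family (left panel) and split into the 30 genes with control replicate 3 at least 2-fold above the other controls and the other 22 (right panel). The 30 genes summed to 6969 to 7552 CPM in mutants and to 516, 600.0 and 3635 CPM in control replicates 1, 2 and 3, and the other 22 to 10361 to 12071 CPM in mutants and 14146 to 14740 CPM in controls.

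Levels were compared between genes per length of exon. On that scale *Lcp65Af* was the most abundant member in all 6 libraries (4123 ± 154 CPM per kb in mutants and 4485 ± 421 CPM per kb in controls, SD, n = 3 each), followed in all 6 by *Lcp65Ag1* (3058 ± 252 CPM per kb in mutants and 3649 ± 148 CPM per kb in controls). Below them the order differed between genotypes. *TwdlN*, *TwdlM* and *TwdlB* shared places 3 to 5 in every mutant, whereas *TwdlN* held places 7 or 8, *TwdlM* places 9 to 14 and *TwdlB* places 10 to 16 in controls. Within the mutants *TwdlM* (1504 ± 146 CPM per kb) and *TwdlB* (1473 ± 177 CPM per kb) did not differ beyond their spread. *TwdlO* stood at place 13 or 14 in mutants (437 ± 15.8 CPM per kb), and at places 4, 4 and 8 in controls (1662 ± 371 CPM per kb). *Vajk3* and *Vajk2* held places 8 to 10 in mutants and 4 to 6 in controls. Pairs that map to several places were not counted, so the places of the close copies *Lcp65Ag1*, *Lcp65Ag2* and *Lcp65Ag3* are uncertain. For the same reason the Lcp sums may be too low, and *Lcp65Ab1* and *Lcp65Ab2*, without a count, could not be ranked.

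**Figure D3:**
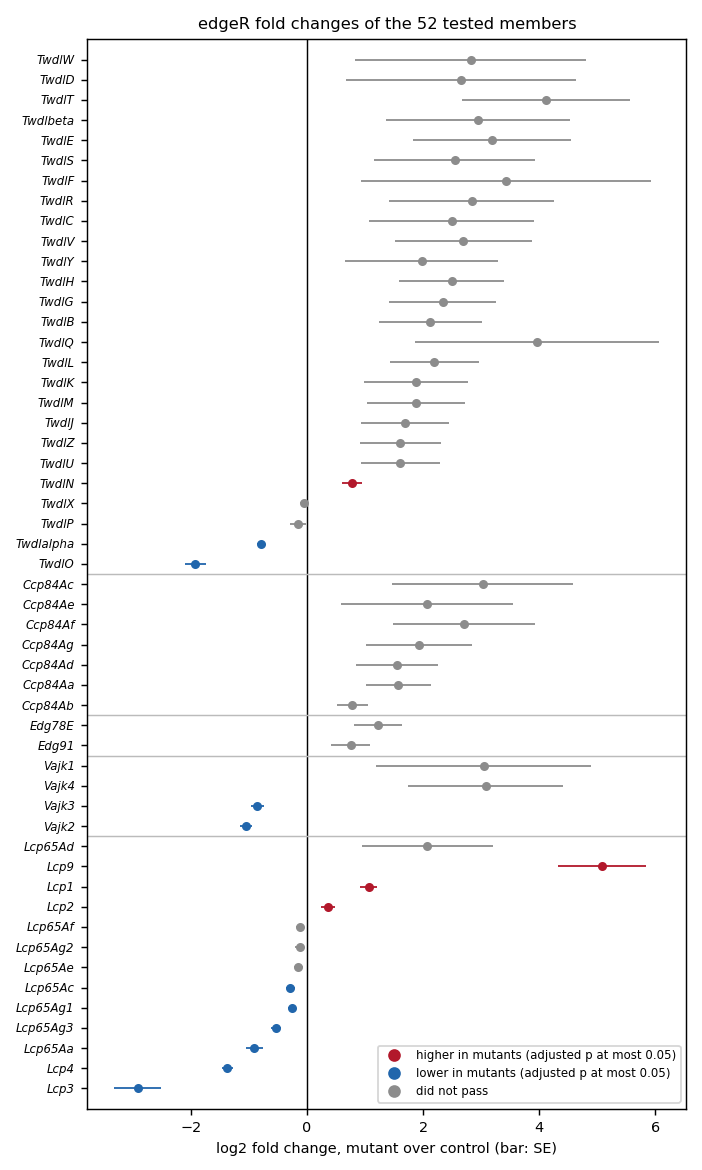
Log2 fold changes (mutant over control, x axis) with SE from edgeR for the 52 tested cuticle genes (y axis, grouped by family), coloured by the call at an adjusted p of at most 0.05. The 4 genes called higher and the 10 called lower have short bars except *Lcp3* and *Lcp9*, whose estimate rests on 57 mutant counts and 1 control count, while the grey points between 1.22 and 4.11 carry SE of 0.41 to 2.50.

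Among the Tweedle genes, 1 of 26 was higher, 2 were lower (22.2% and 26.0% of all genes) and 23 did not pass, with a median log2 fold change of 2.27 (22 positive). *TwdlN* was measured at 1645, 1926 and 2114 CPM in mutants, against 976, 968 and 1372 CPM in controls. Every mutant lay above every control, and control replicate 3 was nearest to the mutants. The log2 fold change was 0.78 (SE 0.18) at an adjusted p of 0.016 by edgeR. The call did not hold without mutant replicate 2, mutant replicate 3 or control replicate 1 (adjusted p = 0.054, 0.067 and 0.054 by edgeR). *TwdlO*, which lies in the same cluster as *TwdlN* but not next to it, had 338, 363 and 355 CPM in mutants, against 1495, 1533 and 996 CPM in controls. The mutants agreed closely and lay under every control, of which replicate 3 was the lowest, and the log2 fold change was -1.93 (SE 0.18) at an adjusted p of 0.00062 by edgeR. *Twdlalpha* had 68.6, 64.4 and 74.4 CPM in mutants, against 121, 124 and 115 CPM in controls, a log2 fold change of -0.79 (SE 0.074) at an adjusted p of 4.6e-05 by edgeR. Here control replicate 3 did not stand apart, and no library of either genotype reached the range of the other. The gene *CG32568* overlaps *Twdlalpha* on the same strand, so the value of *Twdlalpha* is uncertain to the extent that pairs fall in both.

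*TwdlT* and *TwdlQ* had the highest log2 fold changes among the Tweedle genes that did not pass. *TwdlT* had 83.5, 98.7 and 32.4 CPM in mutants, against 0.354, 0.257 and 11.9 CPM in controls (log2 fold change 4.11, adjusted p = 0.082 by edgeR, SE 1.45). All mutants exceeded all controls, mutant replicate 3 was the lowest mutant, and control replicate 3 alone among the controls was above 1 CPM. The gene passed without control replicate 3 (7.81, adjusted p = 0.013 by edgeR), under DESeq2 (adjusted p = 0.017) and under limma-voom (adjusted p = 0.025). *TwdlQ* had 5.48, 14.5 and 0 CPM in mutants, against 0, 0 and 1.27 CPM in controls (log2 fold change 3.96, adjusted p = 0.19 by edgeR, SE 2.10). With no count in mutant replicate 3 and in control replicates 1 and 2, the groups overlapped, and the estimate rests on 89 and 186 counts in mutant replicates 1 and 2 and 14 counts in control replicate 3. In a library without a count, a level of up to 0.213 CPM (mutant replicate 3) or 0.265 and 0.257 CPM (control replicates 1 and 2) is allowed by a floor of 3 counts, which covers counting error only.

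Further Tweedle genes are named here after their values were seen, to show the range of the pattern. The abundant *TwdlB* had 1364, 1451 and 1713 CPM in mutants, against 120.4, 153 and 766 CPM in controls (log2 fold change 2.12, adjusted p = 0.12 by edgeR, SE 0.89). *TwdlM* had 1586, 1383 and 1678 CPM in mutants, against 171, 179 and 913 CPM in controls (log2 fold change 1.88, adjusted p = 0.14 by edgeR, SE 0.84). *TwdlL* had 804, 933 and 1045 CPM in mutants, against 93.5, 96.1 and 418 CPM in controls (log2 fold change 2.19, adjusted p = 0.080 by edgeR, SE 0.77). In these 3 the mutants differed little among themselves, all lay above control replicate 3, and control replicate 3 lay 4.41 to 5.61-fold above the mean of the other controls. The distance was wider in genes that were nearly silent in control replicates 1 and 2. *TwdlW* had 304, 142 and 136 CPM in mutants, against 0.619, 0.686 and 81.4 CPM in controls. *TwdlD*, the gene of the *Tubby* allele, had 587, 202 and 403 CPM in mutants, against 1.86, 3.00 and 185 CPM in controls. *Twdlbeta* had 97.0, 43.5 and 43.5 CPM in mutants, against 0.265, 0.429 and 23.3 CPM in controls. Their mutants spread over more than 2-fold, control replicate 3 was 67.2 to 125-fold above the other controls, and none passed (adjusted p = 0.31, 0.33 and 0.20 by edgeR). The other 10 genes of this kind (*TwdlC*, *TwdlE*, *TwdlG*, *TwdlH*, *TwdlJ*, *TwdlK*, *TwdlS*, *TwdlV*, *TwdlY* and *TwdlZ*) had log2 fold changes between 1.60 and 3.19, with every mutant above every control in all but *TwdlZ*. *TwdlX* and *TwdlP* showed no such pattern. *TwdlX* had 230.3, 197 and 207 CPM in mutants, against 225, 212 and 223 CPM in controls. *TwdlP* had 341, 430.4 and 486 CPM in mutants, against 507, 439 and 455 CPM in controls. Their groups overlapped, with log2 fold changes of -0.06 and -0.16 (SE 0.072 and 0.13). *TwdlU*, which the annotation lists as a pseudogene, had 0.817 to 6.94 CPM over the 6 libraries and did not pass (adjusted p = 0.11, edgeR).

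A library of the other genotype also stood out in some Tweedle genes. In mutant replicate 3, *TwdlF*, *TwdlR*, *TwdlQ*, *TwdlT* and the larval cuticle gene *Lcp3* were at least 2-fold below both other mutants, 5 of 52 members against 2.26% of all genes. *TwdlF* and *TwdlR* are named here after their values were seen. *TwdlF* had 171, 689.8 and 4.48 CPM in mutants, against 1.42, 1.54 and 77.5 CPM in controls. Mutant replicate 3 was thus below control replicate 3 in this gene, and the groups overlapped. *TwdlR* had 37.1, 32.8 and 9.67 CPM in mutants, against 0.177, 0.343 and 10.7 CPM in controls, where mutant replicate 3 again lay just under control replicate 3. Without mutant replicate 3, 2 members were higher and 12 lower, against 20.6% and 23.9% of the 11246 genes tested there.

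**Figure D4:**
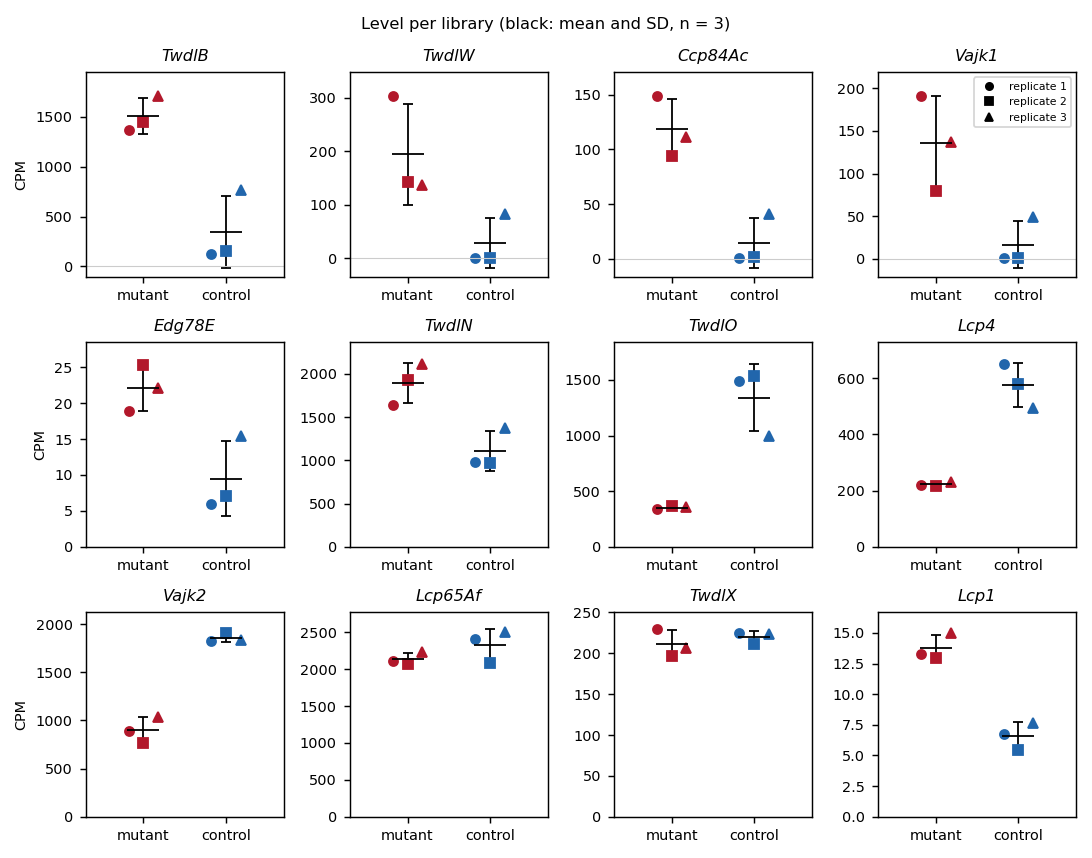
Levels (CPM, y axis) of 12 cuticle genes in the 3 mutants (left in each panel) and the 3 controls (right), with the symbol marking the replicate and the black bar the mean and SD (n = 3). In *TwdlB*, *TwdlW*, *Ccp84Ac*, *Vajk1* and *Edg78E* control replicate 3 lies between the other controls and the mutants, in *TwdlO*, *Lcp4* and *Vajk2* every mutant lies below every control, and in *Lcp65Af* and *TwdlX* the groups overlap.

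All 7 Ccp84A genes had a positive log2 fold change, 0.78 to 3.03 with a median of 1.93, and every mutant lay above every control in each of the 7, as in 29.4% of all genes. None passed the test by edgeR, and 2 had an unadjusted p under 0.05. *Ccp84Ae* and *Ccp84Af* had the highest levels per kb of exon in the mutants and in the mean over all 6 libraries, whereas *Ccp84Ab* had the highest in the mean of the controls. *Ccp84Af* had 134, 118 and 113 CPM in mutants, against 2.48, 5.83 and 47.8 CPM in controls (log2 fold change 2.71, adjusted p = 0.14 by edgeR, SE 1.23). *Ccp84Ae* had 117, 120.2 and 141 CPM in mutants, against 1.42, 7.47 and 81.3 CPM in controls (log2 fold change 2.07, adjusted p = 0.31 by edgeR, SE 1.48). *Ccp84Ac*, with the highest log2 fold change of the cluster, had 149, 93.9 and 112 CPM in mutants, against 1.15, 1.37 and 41.1 CPM in controls (log2 fold change 3.03, adjusted p = 0.19 by edgeR, SE 1.56). In all 3 every mutant lay above every control, and control replicate 3 stood 11.5 to 32.6-fold above the other controls. Levels of the 7 genes in mutants lay between 64.3 and 149 CPM over all libraries, whereas control replicates 1 and 2 ranged over 1.15 to 51.0 CPM. *Ccp84Ab*, named after its values were seen, was the exception that control replicate 3 did not separate by 2-fold. It had 95.0, 96.8 and 103 CPM in mutants, against 41.3, 51.0 and 79.7 CPM in controls (log2 fold change 0.78, adjusted p = 0.066 by edgeR, SE 0.26), and already stood at 41.3 CPM in the lowest control. Without control replicate 3 all 7 were higher, against 22.8% of all genes. That is a description and no support, because 6 of the 7 were among the 30 genes chosen on the control values. With all 6 libraries, 5 of the 7 were higher under DESeq2, against 21.9% of all genes. There the *Ccp84Ac* and *Ccp84Ae* estimates did not pass (adjusted p = 0.069 and 0.21 by DESeq2). Under limma-voom with all 6 libraries, all 7 were higher, against 23.2% of all genes.

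Of the ecdysone-dependent Edg genes, *Edg78E* had 18.9, 25.3 and 22.2 CPM in mutants, against 6.02, 7.04 and 15.4 CPM in controls. No mutant overlapped a control, control replicate 3 was closest to the mutants, and the log2 fold change of 1.22 (SE 0.41) at an adjusted p of 0.066 by edgeR did not pass. It passed without control replicate 3 (1.74, adjusted p = 1.9e-05) and under DESeq2 (1.25, adjusted p = 3.8e-05). *Edg91*, a gene for a glycine-rich protein without the chitin-binding domain, had 40.6, 32.1 and 63.5 CPM in mutants, against 23.6, 22.9 and 34.5 CPM in controls. Mutant replicate 2 lay under control replicate 3, and the difference did not pass (log2 fold change 0.75, adjusted p = 0.13 by edgeR, SE 0.33). *Edg84A*, which is known from the cuticle of the prepupa, was nearly absent, with 3, 2 and 0 counts in mutants and 0, 1 and 0 counts in controls, and was not tested.

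The Vajk genes fell into pairs with different behaviour. *Vajk2* had 891, 766 and 1040.1 CPM in mutants, against 1826, 1912 and 1838 CPM in controls. *Vajk3* had 1123, 966 and 1338 CPM in mutants, against 2054, 2115 and 2043 CPM in controls. Every mutant lay below every control in both, and control replicate 3 did not stand apart. Their log2 fold changes were -1.05 (SE 0.10) at an adjusted p of 0.00010 by edgeR for *Vajk2*, and -0.86 (SE 0.11) at an adjusted p of 0.00046 by edgeR for *Vajk3*. *Vajk1* had 191, 79.9 and 137 CPM in mutants, against 0.442, 0.686 and 48.6 CPM in controls (log2 fold change 3.04, adjusted p = 0.24 by edgeR, SE 1.84). *Vajk4*, which lies apart on chromosome arm 2R, had 161, 105 and 103 CPM in mutants, against 2.30, 2.66 and 38.9 CPM in controls (log2 fold change 3.08, adjusted p = 0.13 by edgeR, SE 1.33). In both, control replicates 1 and 2 were under 3 CPM, control replicate 3 lay 86.1 and 15.7-fold above their mean, and no mutant overlapped a control. Neither passed with all 6 libraries by edgeR, and both were higher without control replicate 3 (adjusted p = 0.0049 for *Vajk1* and 0.00041 for *Vajk4*, edgeR). With all 6 libraries, *Vajk4* passed under DESeq2 (adjusted p = 0.025) and limma-voom (adjusted p = 0.0053). *Vajk1* passed under limma-voom (adjusted p = 0.014) but not under DESeq2 (adjusted p = 0.13).

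The larval cuticle protein genes held 9 of the 14 calls, 3 higher and 6 lower among 13 tested, against 22.2% and 26.0% of all genes, with a median log2 fold change of -0.15. *Lcp1*, *Lcp2*, *Lcp3* and *Lcp4* are neighbours on chromosome arm 2R and are long known as a cluster of larval cuticle genes. *Lcp4* had 219.9, 216 and 229 CPM in mutants, against 650.2, 581 and 495 CPM in controls. The mutants spanned a narrow range below every control, and the log2 fold change was -1.37 (SE 0.094) at an adjusted p of 1.7e-05 by edgeR. *Lcp3* was rare, at 0.554, 0.468 and 0.142 CPM in mutants, against 3.98, 2.40 and 2.72 CPM in controls, with the groups again apart and a log2 fold change of -2.92 (SE 0.40) at an adjusted p of 0.00031 by edgeR on 17 mutant and 103 control counts. *Lcp1* had 13.3, 12.9 and 15.0 CPM in mutants, against 6.72, 5.41 and 7.63 CPM in controls, every mutant above every control, with a log2 fold change of 1.06 (SE 0.14) at an adjusted p of 0.00028 by edgeR. *Lcp2* had 33.1, 33.1 and 41.2 CPM in mutants, against 25.1, 26.6 and 32.0 CPM in controls. The lowest mutants lay only just above control replicate 3, and the log2 fold change of 0.36 (SE 0.12) at an adjusted p of 0.031 by edgeR did not stay past the threshold under limma-voom (adjusted p = 0.051) or without mutant replicate 3, control replicate 1 or control replicate 2 (adjusted p = 0.087, 0.13 and 0.11). *Lcp9*, which lies alone on 2R, had 57 counts over the mutants and 1 count over the controls, a ratio of 44.9 with a 95% exact binomial interval of 7.74 to 1804, and an adjusted p of 0.0005 by edgeR. Its levels were 1.29, 0.858 and 1.78 CPM in mutants and 0, 0 and 0.0908 CPM in controls. A gene for an antisense RNA, *asRNA:CR44067*, overlaps it on the other strand, and the counts used here keep the strands apart.

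Most Lcp65 genes of chromosome arm 3L differed little between libraries. *Lcp65Af* had 2115, 2075 and 2229 CPM in mutants, against 2403, 2082 and 2498 CPM in controls. *Lcp65Ae* had 152, 149.5 and 172 CPM in mutants, against 188, 172 and 165 CPM in controls. The groups overlapped in both, and log2 fold changes were -0.12 (SE 0.074) at an adjusted p of 0.20 by edgeR for *Lcp65Af*, and -0.15 (SE 0.078) at an adjusted p of 0.14 by edgeR for *Lcp65Ae*. *Lcp65Af* was called lower without control replicate 2 (-0.21, adjusted p = 0.047 by edgeR), and *Lcp65Ae* without mutant replicate 3 (-0.21, adjusted p = 0.038). Small differences passed where replicates agreed closely. *Lcp65Ag1* had 1493, 1519 and 1730.3 CPM in mutants, against 1973, 1828 and 1859 CPM in controls, which left a gap between the groups and a log2 fold change of -0.26 (SE 0.070) at an adjusted p of 0.013 by edgeR, but did not pass without mutant replicate 2 or control replicate 1 (adjusted p = 0.051 and 0.057). *Lcp65Ag3* had 682, 715 and 853 CPM in mutants, against 1114, 1046 and 1107 CPM in controls, a log2 fold change of -0.54 (SE 0.084) at an adjusted p of 0.00067 by edgeR, and is overlapped on the other strand by *asRNA:CR46005*. *Lcp65Ac* had 272, 267 and 293 CPM in mutants, against 329, 318 and 369.5 CPM in controls, a log2 fold change of -0.29 (SE 0.074) at an adjusted p of 0.0095 by edgeR. In *Lcp65Ag3* and *Lcp65Ac*, too, every mutant lay below every control. *Lcp65Aa* fell furthest of this cluster, at 37.9, 53.9 and 50.8 CPM in mutants, against 99.7, 85.2 and 82.3 CPM in controls, with a log2 fold change of -0.91 (SE 0.14) at an adjusted p of 0.0016 by edgeR. *Lcp65Ad* alone behaved like the Ccp84A genes. It had 63.0, 37.9 and 46.9 CPM in mutants, against 1.95, 3.43 and 30.0 CPM in controls, with control replicate 3 raised above the other controls and under every mutant, and a log2 fold change of 2.07 (SE 1.13) at an adjusted p of 0.20 by edgeR. *Lcp65Ag2*, which did not pass and is named here after its values were seen, had 566, 584 and 671 CPM in mutants, against 675, 623 and 695 CPM in controls. *Lcp65Ag1*, *Lcp65Ag2* and *Lcp65Ag3* encode proteins of 105 residues each and are close copies, so pairs that map to more than 1 of them were not counted and their separate values are uncertain. The same holds for *Lcp65Ab1* and *Lcp65Ab2* (104 residues each), which had no count in any library. The remaining untested members were the pseudogenes *Lcp1Psi*, with 2 counts, and *Lcp65APsi*, with 1 count.

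The members lie close together in the genome. With gaps of at most 20 kb allowed, 47 of the 57 form 7 clusters and 10 stand alone, and neighbours did not always move alike. The largest Tweedle cluster, 12 genes at 26619118 to 26641054 of chromosome arm 3R (BDGP6), held 10 positive and 2 negative log2 fold changes, and *TwdlO* (-1.93) sits between *TwdlL* (2.19) and *TwdlK* (1.88). On the X chromosome (16731091 to 16744365), *TwdlY* and *TwdlZ* had 1.98 and 1.60 while their neighbours *TwdlX* and *Twdlalpha* had -0.06 and -0.79. At 13920707 to 13947476 of 2L, *Vajk1*, *Vajk2* and *Vajk3* lie inside the gene *Ance-3* on its opposite strand, with 3.04 for *Vajk1* and -1.05 and -0.86 for the others. In the Lcp65 cluster (6130386 to 6151803 of 3L), 7 of 8 tested genes had a negative log2 fold change and *Lcp65Ad* a positive one. Uniform signs were seen in *TwdlU*, *TwdlF*, *TwdlG* and *TwdlV* (4243606 to 4255833 of 3R, 1.61 to 3.43) and in the Ccp84A genes (6684445 to 6704903 of 3R, with *Edg84A*). At 8430115 to 8438495 of 2R, *Lcp1* and *Lcp2* were higher and *Lcp3* and *Lcp4* lower.

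**Figure D5:**
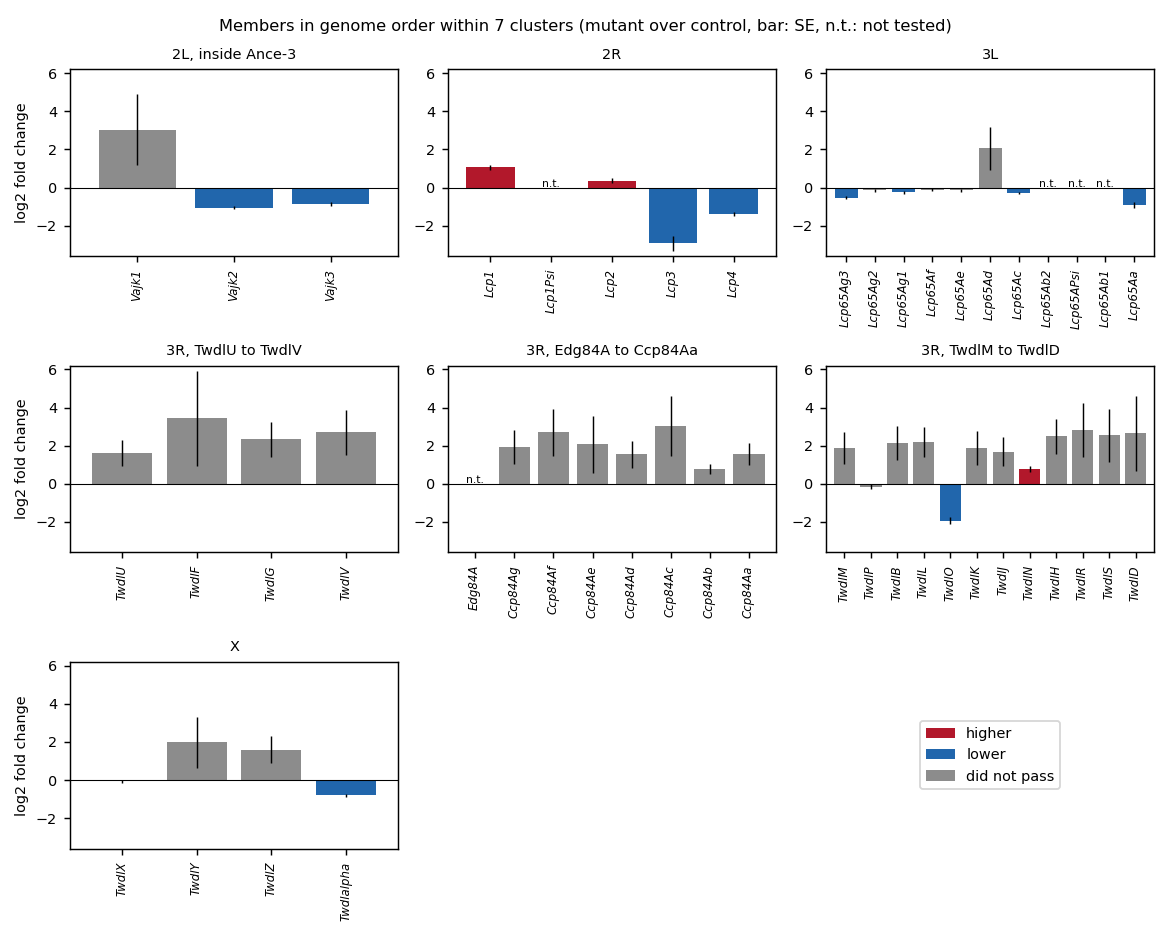
Log2 fold changes (mutant over control, y axis) with SE for the cuticle genes of 7 genomic clusters, in genome order along the x axis, coloured by the edgeR call at an adjusted p of at most 0.05 (n.t., not tested). Signs are mixed within the clusters on 2L, 2R, 3L and X and in the *TwdlM* to *TwdlD* cluster, where *TwdlO* (-1.93) stands between genes with positive values.

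Genes that build, tan and time the cuticle were set beside the members. The counts of these lists stand against 22.2% of all genes called higher, 26.0% called lower, 3.47% with control replicate 3 at least 2-fold above the other controls and 2.26% with mutant replicate 3 at least 2-fold below the other mutants. Of 55 tested genes named Cpr, the largest family of chitin-binding cuticle proteins, 16 were higher and 9 lower with a median log2 fold change of 0.77, and 21 had control replicate 3 at least 2-fold above the other controls. Among 25 genes that make, bind or remodel chitin, 13 were higher and 3 lower (median 0.37). Chitin synthase 1, *kkv*, had 289, 299.9 and 267 CPM in mutants, against 150.5, 168 and 152 CPM in controls (log2 fold change 0.86, adjusted p = 2.9e-05 by edgeR, SE 0.072), and in none of the 25 was control replicate 3 raised 2-fold. Of 11 tanning genes, 6 were higher and 5 did not pass (median 1.31). *yellow-c*, a gene of the yellow family, had 56.9, 52.2 and 57.1 CPM in mutants, against 22.2, 19.6 and 29.0 CPM in controls (log2 fold change 1.23, adjusted p = 0.00021 by edgeR, SE 0.14). *stw* had 170.3, 184 and 162 CPM in mutants, against 61.4, 61.9 and 85.3 CPM in controls (log2 fold change 1.31, adjusted p = 0.00024 by edgeR, SE 0.14). Of 13 ecdysone response genes, 4 were higher and 9 did not pass (median 0.89). *Eip78C* had 18.9, 15.7 and 19.7 CPM in mutants, against 3.98, 4.12 and 7.17 CPM in controls (log2 fold change 1.83, adjusted p = 0.00054 by edgeR, SE 0.23). *EcR*, a gene for a subunit of the ecdysone receptor, had 56.9, 47.3 and 62.3 CPM in mutants, against 27.1, 27.5 and 35.2 CPM in controls (log2 fold change 0.89, adjusted p = 0.0010 by edgeR, SE 0.13). *Eip75B* was higher as well (log2 fold change 0.83, adjusted p = 0.021 by edgeR, SE 0.20). The 4 that were higher included *ftz-f1*, a nuclear receptor gene expressed as ecdysone declines, named after its values were seen. It had 154, 96.2 and 117 CPM in mutants, against 13.4, 12.9 and 39.8 CPM in controls (log2 fold change 2.48, adjusted p = 0.030 by edgeR, SE 0.60), with control replicate 3 between the other controls and the mutants. Summed, the ecdysone response genes had 661.8 to 848 CPM in mutants, against 207, 228 and 341 CPM in controls. Of the 18 tested Osiris genes, an insect family expressed in epithelia that lay down cuticle, 3 were higher and 15 did not pass (median 4.37), and of 13 genes for apical ZP-domain proteins, 4 were higher and 9 did not pass (median 2.34). Control replicate 3 was at least 2-fold above the other controls in 10 Osiris, 5 ZP-domain, 4 tanning and 4 ecdysone response genes. In 12 Osiris and 6 ZP-domain genes mutant replicate 3 was at least 2-fold below the other mutants. The part of these genes in the levels of the cuticle proteins was not tested.

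Markers of the tissues in a whole larva were read in the same way. Of 7 epidermis and trachea markers, which share *kkv*, *verm*, *serp* and *Gasp* with the chitin list, 4 were higher and 3 did not pass, and their sum was 3399 to 4002 CPM in mutants, against 1794 to 2552 CPM in controls, where control replicate 3 was the highest control. Midgut markers had 2 of 4 higher (1386 to 1692 CPM in mutants, 741 to 966 CPM in controls) and neuronal markers 3 of 4 higher (295 to 346 CPM in mutants, 231 to 262 CPM in controls). Muscle markers had 2 of 4 lower (35573 to 40507 CPM in mutants, 40081 to 41852 CPM in controls), and hemocyte markers 1 of 4 lower (115 to 138 CPM in mutants, 134 to 141 CPM in controls). Of the fat body markers *Lsp2* and *Fbp1* were near 0 in every library, and 1 of the 2 tested was lower (4805 to 5492 CPM in mutants, 6763 to 7051 CPM in controls). The epidermal sum moved in the same direction as the Twdl and Ccp84A sums and against the Lcp and Vajk sums, and its part in either was not tested. The largest terms of that sum were *verm* and *serp* (means of 1647 and 1130.5 CPM in mutants), both from the chitin list. Outside the chitin list, *trh* was higher (log2 fold change 0.41, adjusted p = 0.018 by edgeR). *shg* (-0.10, adjusted p = 0.28 by edgeR) and *btl* (0.07, adjusted p = 0.76 by edgeR) did not pass.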

How the data were processed

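RNA-seq of whole L2 larvae was analysed from the 6 count tables that the authors deposited, 3 of *Pyk 23/31* mutants and 3 of *Pyk 23/+* controls. The deposited values are raw counts of read pairs per gene, not normalized, in the layout of STAR, and STAR and BDGP6 are named in the processing notes of the submitters, with no version given in the sources used here. The study's methods also describe a route through Kallisto, tximport and DESeq2, whose tables were not used here. Only the column of the strand expected from TruSeq Stranded mRNA kits was tested. Its opposite took 2.50% to 2.55% of the pairs assigned to either strand and was left out (1 column per file). Lines that name no gene held 0.0329% to 0.0461% of the pairs and stayed out of library sizes. Pairs that map to several places were not counted. Depth was 11249487 to 16029304 assigned pairs per library, and floors and intervals cover counting error only, because PCR reads carry no molecular identifier here.

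Genes with at least 12 counts over the 6 libraries were fitted together in edgeR 4.0.16 (TMM, robust quasi-likelihood test) under R 4.3.3, and p-values were adjusted by Benjamini-Hochberg over all 11422 genes. The threshold was an adjusted p of 0.05, with a change of at least 2-fold where stated. The fit was tested on simulated data in which no replicate stood apart, so that test does not cover the shift of replicate 3. Alternatives were DESeq2 1.42.0, limma-voom (limma 3.58.1), library totals without TMM, other count filters, unstranded counts, a replicate block and leaving out libraries. Symbols, lengths and positions come from the BDGP6.54 annotation, which uses the assembly of the files. All members were counted. Values in every library were given for each member that passed and, in each family, for the 2 with the highest level per kb and the 2 with the largest change among those that did not pass, and any other gene is said to be named after its values were seen. From the other gene lists up to 3 genes by smallest p were named. Single genes of the tissue marker lists were named outside these rules, with their values known. The members, the lists and these rules were chosen with earlier results of these data known. Groups of 3 were not tested for outliers. No protein or promoter sequence was used here.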

Additional observations from a re-analysis of the deposited data

How the results depend on the processing

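The number of cuticle genes called higher depended on the processing, and the number called lower did not. Of the 52 genes, 4 were higher, against 21 under DESeq2, 30 under limma-voom and 34 without replicate 3 of both genotypes, and leaving out 1 library gave 2 (without mutant replicate 3 or control replicate 1) to 33 (without control replicate 3). Of all genes tested in each fit, 22.2% were higher with all libraries, 21.9% under DESeq2 and 23.2% under limma-voom. That share was 24.1% without replicate 3 of both genotypes, 20.6% without mutant replicate 3 and 22.8% without control replicate 3. With at least 2-fold as well, 2 of the 52 were higher, against 18 under DESeq2, 28 under limma-voom and 31 without replicate 3 of both genotypes, and leaving out 1 library gave 1 (without mutant replicate 3 or control replicate 2) to 31 (without control replicate 3). The cause of the difference between the tools was not tested. Between 9 and 12 cuticle genes were lower under every alternative (10 with all libraries), and between 3 and 6 by at least 2-fold (4 with all libraries). Of all genes, 26.0% were lower with all libraries, 20.8% under DESeq2, 26.0% under limma-voom and 25.7% without replicate 3 of both genotypes. Shares of all genes at 2-fold under the alternatives, under the replicate block and without other single libraries are not given here. Library totals without TMM, no count filter beyond 1 count, edgeR's filterByExpr and unstranded counts left the numbers higher at 4 and 2.

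Neither labels nor methods state whether same-numbered samples were handled together. The deviations of same-numbered samples from their group means correlated at -0.293, -0.103 and -0.306 over genes. These values cannot decide the question, because the deviations of 3 samples constrain each other and replicate 3 stood apart in each genotype. With the replicate number as a block, 7 genes were higher and 10 lower, and *Edg91* passed (log2 fold change 0.72, adjusted p = 0.00049 by edgeR). Among the 26 members named by rule, no alternative reversed a direction, 321 fits stayed on the same side of the threshold, 9 no longer passed and 33 newly passed. With 3 libraries per genotype, of which replicate 3 stood apart in each, the SE of up to 2.50 in the genes raised in control replicate 3 limits what the test can call.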
